A study of Mus musculus with 2 samples.

Results

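Alveolar Tcf21 fibroblasts, the fibroblasts of the thin alveolar wall, were studied in mouse lungs with a low and a high burden of breast cancer metastases. The cells were selected on their own UMI counts (unique molecular identifiers, one per captured RNA molecule). A member carried Inmt, Tcf21, Mfap4 and Hsd11b1 at a summed level of at least 15 UMIs per 10000 UMIs of the cell. That sum also had to be no lower than the summed level of Clec3b, Pi16, Dcn, Mfap5 and Lum, which mark adventitial fibroblasts around vessels and airways. Cells with Cldn5 and Cdh5 at 3 or more, Cdkn2a, Twist1 and Hmga2 at 6 or more, or Myh11 at 3 or more per 10000 UMIs were left out. These cutoffs set aside endothelial cells, metastatic cells and smooth muscle cells. The rule found 311 members among 5506 cells, of which 251 came from the low-burden lung and 60 from the high-burden lung.

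Both lungs came from female FVB/NJ mice that were 10 weeks old when Met-1 cells, a metastatic carcinoma line derived from a mammary tumor of an MMTV-PyMT mouse, were injected into the tail vein. The low-burden lung was taken at week 1 and the high-burden lung at week 3, with 1 mouse and 1 droplet library (10x Genomics) for each. Both lungs had therefore been seeded with tumor cells, no library from an uninjected lung was used here, and the labels place both libraries in the same batch. With 1 library per burden no difference between them has a replicate check, no test was possible, and week, burden, depth and mouse cannot be told apart. All intervals are 95% intervals of counting error only.

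Alveolar fibroblasts hold the lipid- and retinoid-storing cells of the alveolar wall and lie against type 2 epithelial cells and capillaries. Tcf21 is a transcription factor that marks this mesenchyme from development onward. Inmt methylates indole amines, Hsd11b1 regenerates active glucocorticoid inside the cell, and Mfap4 is a glycoprotein that binds elastic microfibrils. Ogn, a small leucine-rich proteoglycan, and Figf, the older symbol of Vegfd and a growth factor for lymphatic vessels, also mark these cells and were not used by the rule. In the GRCm38 assembly Tcf21 lies on chromosome 10 (22817281 to 22820174, minus strand), Inmt on chromosome 6 (55170626 to 55175043, minus strand), Mfap4 on chromosome 11 (61485431 to 61488900, plus strand) and Hsd11b1 on chromosome 1 (193221634 to 193264075, minus strand). Ogn lies on chromosome 13 (49608046 to 49624501, plus strand) and Figf on chromosome X (164373378 to 164402650, plus strand). All 6 are protein-coding genes.

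The libraries held 2668 cells (low burden, 14041471 UMIs) and 3121 cells (high burden, 52723173 UMIs). After cells with 1000 to 7000 genes and at most 10% mitochondrial UMIs were kept, 2473 and 3033 cells remained. Members held 1218323 UMIs in the low-burden library (median 4048 per cell) and 559700 in the high-burden library (median 6855 per cell). At a fixed 2000 UMIs per cell, members showed a median of 1058 genes at low and 1004.5 genes at high burden. The libraries shared 11 cell barcodes, and 1 low-burden member and 0 high-burden members were among them.

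The label was checked with the markers that the rule had not used. Ogn or Figf was detected in 207 of 251 low-burden members (82.5%) and in 55 of 60 high-burden members (91.7%). Among members with a gate sum of 50 or more per 10000 UMIs, these shares were 97.0% (194 of 200) and 100% (46 of 46). Thinned to 2000 UMIs per cell, Ogn was seen in 70.1% of low-burden and 60.0% of high-burden members, against 5.00% and 2.78% of lymphocytes, which should lack it. Unthinned, those shares of members were 80.1% and 90.0%, and median depths were 3336 and 6959.5 UMIs in the lymphocytes. The gate sum had a median of 157 in low-burden members (range 15.0 to 556) and 103 in high-burden members (15.2 to 314), as the plot of the gate by cell shows. In members without the immune or surfactant genes described below, the medians were 167 (low burden) and 146 (high burden).

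**Figure D1:**
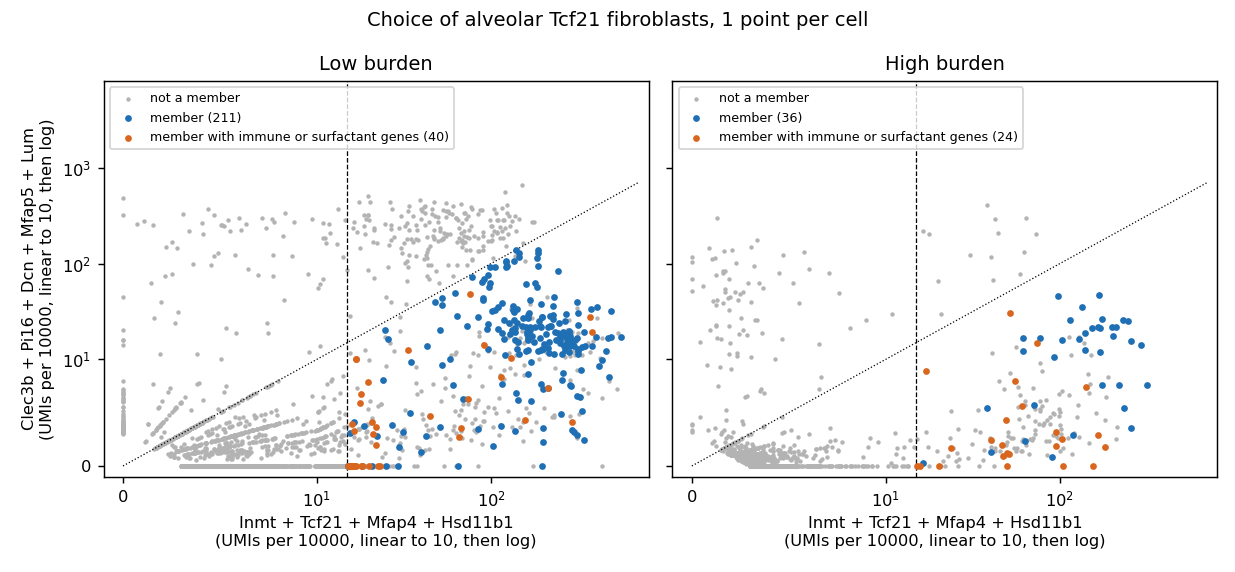
Summed level of the 4 genes that chose the cells (horizontal) against the summed level of the 5 adventitial genes (vertical), each in UMIs per 10000 on an axis that is linear to 10 and logarithmic above, 1 point per cell whose sums add up to at least 3. The dashed line marks the limit of 15, the dotted line marks equal sums, blue points are members, orange points are members that also carried immune or surfactant genes (40 at low and 24 at high burden), and gray points to the right of the dashed line and under the dotted line were left out for endothelial, metastatic or smooth muscle genes.

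The edge of the gate held cells of another kind. Of the 27 low-burden members at 15 to under 20 per 10000 UMIs, 20 carried immune or surfactant genes and 3 carried Ogn or Figf (11.1%). Of the 80 low-burden cells just outside, at 10 to under 15, 14 carried Ogn or Figf (17.5%). At high burden 4 members lay just inside, with 0 carrying Ogn or Figf, and 6 cells lay just outside, with 2 carrying either gene.

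Genes of other cell types were present in part of the members. Cells were marked when C1qa, C1qb, C1qc, Cd3e, Cd79a, Tyrobp and Ptprc summed to 10 or more, or Sftpc exceeded 100, per 10000 UMIs. These were 40 of 251 low-burden members (15.9%, interval 11.6 to 21.1) and 24 of 60 high-burden members (40.0%, 27.6 to 53.5). Tyrobp, a myeloid and natural killer cell adaptor, alone reached 10 in 26 low-burden (10.4%) and 16 high-burden members (26.7%). C1q genes, products of tissue macrophages, summed to 10 or more in 4 of 251 and 15 of 60. Cd3e and Cd79a, genes of T and B cells, summed to 3 or more in 11 low-burden and 0 high-burden members, a level that alone did not mark a cell. Ear genes and Chil3, products of alveolar macrophages, reached 20 in 19 low-burden and 0 high-burden members. The summed level of 12 macrophage markers was 4213 UMIs per 1000000 UMIs of the class (CPM) in low-burden and 15855 CPM in high-burden members, and 1520 and 2913 CPM once the marked members were left out. Counts and medians of the gene lists by burden are therefore given for all members and for the members without immune or surfactant genes (the second set, 211 low-burden and 36 high-burden cells), and values of single genes are for all members unless the second set is named. Scrublet, a doublet caller, marked 25 low-burden and 49 high-burden cells, and 1 of the 40 and 0 of the 24 marked members were among them.

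Members made up 10.1% of low-burden cells (8.99 to 11.4) and 1.98% of high-burden cells (1.51 to 2.54). The metastatic gate took 1250 of the 3033 high-burden cells and 16 of the 2473 low-burden cells. In those 16 cells 12 metastatic markers summed to 315 CPM, against 11849 CPM at high burden. Their 12 endothelial markers summed to 20148 CPM, against 9679 CPM in low-burden endothelial cells, so the 16 are not named metastatic here. Among cells without metastatic genes, members made up 10.2% (9.06 to 11.5) at low and 3.39% (2.59 to 4.34) at high burden. Without immune or surfactant genes these shares were 8.60% (7.52 to 9.78) and 2.03% (1.43 to 2.80). The intervals of the libraries did not overlap. By the same measure endothelial cells (33.1% and 9.20%), adventitial fibroblasts without mesothelial genes (7.66% and 1.98%), smooth muscle cells and pericytes (3.14% and 0.847%) and lymphocytes (8.15% and 4.06%) also took smaller shares at high burden, while C1q macrophages took 2.32% and 46.0%. The shares are parts of 1 whole, so a larger share of macrophages lowers the others. The yield of each dissociation was not measured, so fewer cells in the lung and fewer cells recovered cannot be told apart.

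The levels of the marker genes were compared across classes of cells (the plot of marker levels by class). Inmt stood at 9621 CPM in low-burden and 6225 CPM in high-burden members. Adventitial fibroblasts, taken here without cells carrying mesothelial genes (188 and 35 cells), held Inmt at 2687 and 440.1 CPM, and endothelial cells at 317 and 169 CPM. Tcf21 stood at 511 and 157 CPM in members and at 198 and 14.3 CPM in adventitial fibroblasts. Ogn stood at 932 and 531 CPM in members and at 679 and 110.0 CPM in adventitial fibroblasts. Figf stood at 403 and 202 CPM in members, at 212 and 31.1 CPM in adventitial fibroblasts, and at 10.7 and 1.71 CPM in lymphocytes. In either lung the order was the same for Ogn and Figf, with members first, adventitial fibroblasts next, and lymphocytes and endothelial cells far below. Smooth muscle cells and pericytes stood below adventitial fibroblasts, with Ogn at 325 and 76.8 CPM and Figf at 80.2 and 11.8 CPM. Each of the 6 markers was lower in members of the high-burden lung, and Inmt, Tcf21, Mfap4 and Hsd11b1 also chose the cells. Members without immune or surfactant genes had median levels per 10000 UMIs of 109 (low burden) and 103 (high burden) for Inmt. For Mfap4 these medians were 36.9 and 33.1, for Hsd11b1 13.1 and 9.1, and for Tcf21 4.1 and 0.84. They were 10.2 and 7.48 for Ogn and 3.08 and 1.9 for Figf.

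**Figure D2:**
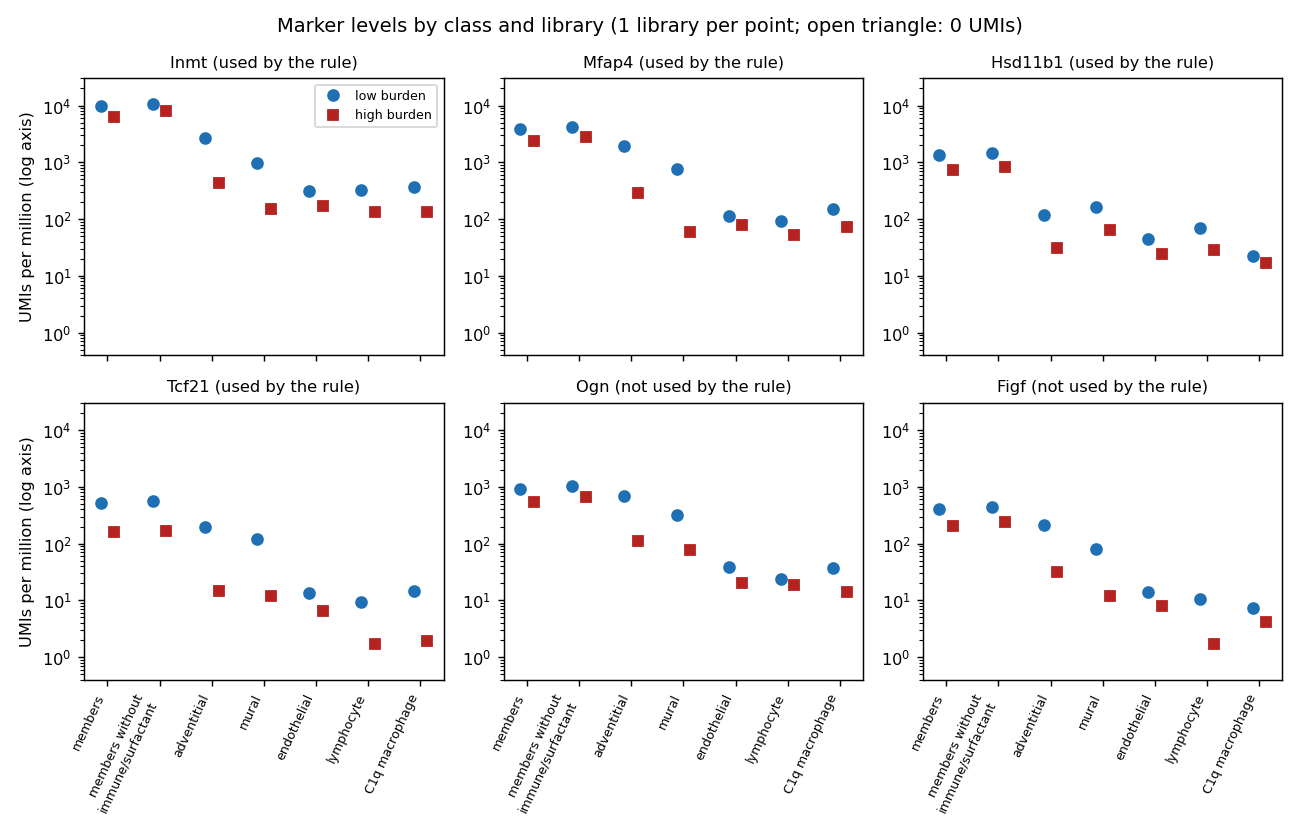
Level of the 6 marker genes in UMIs per 1000000 (vertical, log axis) by class of cell (horizontal), with circles for the low-burden and squares for the high-burden library and 1 library per point. Ogn and Figf were not used by the rule, and stood at 932 and 403 CPM in low-burden members against 23.8 and 10.7 CPM in lymphocytes.

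Members were then set beside adventitial fibroblasts, the closest other fibroblasts, to see what sets them apart from those cells beyond the rule. Of 3823 genes tested, 115 were at least 2-fold higher in members in both libraries (3.01%) and 139 were at least 2-fold lower (3.64%). The highest were Col13a1 (a transmembrane collagen), Scube2, Nebl, Npnt (nephronectin) and Slc38a5 (an amino acid carrier). Col13a1 stood at 233 CPM in members and 6.46 CPM in the adventitial gate at low burden, and at 152 and 1.89 CPM at high burden. Npnt, a basement membrane ligand, stood at 744 and 35.1 CPM at low burden and at 466 and 35.0 CPM at high burden. Itga8, the integrin chain that binds nephronectin, stood at 337 and 18.5 CPM at low burden and at 168 and 15.2 CPM at high burden. A matrix ligand and its receptor were thereby both among the 15 genes with the highest ratios over the adventitial gate. Smooth muscle cells and pericytes held Itga8 at 661 CPM (low burden) and 189 CPM (high burden), above members, and Npnt at 270 and 41.4 CPM, below them.

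Other genes with high ratios were Sept4, Rgs2 (an inhibitor of G protein signaling), Slc36a2, Cdo1 (cysteine dioxygenase), Gyg (the primer of glycogen) and Mettl7a1. Rgs2 stood at 311 CPM (low burden) and 124 CPM (high burden) in smooth muscle cells and pericytes, against 300.4 and 581 CPM in members. Cxcl14, a chemokine, stood at 547 CPM in members and 10.2 CPM in the adventitial gate at low burden, and at 541 and 61.6 CPM at high burden. Napsa and Sftpc, products of type 2 cells, were also among the 15, and their high-burden ratios without the marked members were 0.81 and -0.82 on the log2 scale. Of 18 tested alveolar fibroblast markers outside the gate, 10 were higher and 2 were lower in members in both libraries. Of 18 tested adventitial markers outside the gate, 0 were higher and 11 were lower.

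Genes that were lower in members included Penk (proenkephalin), Cd248, Cthrc1, Fndc1, Adgrd1, Aldh1a2 (a retinoic acid synthase), Cfb, Il33 (an alarmin), Dpp4 and Ildr2. Cd248 stood at 12.3 CPM in low-burden members and 219 CPM in the adventitial gate. Il33 stood at 15.6 and 155 CPM at low burden and at 7.15 and 172 CPM at high burden. The adventitial gate also held 18 of 206 low-burden and 35 of 70 high-burden cells with mesothelial genes. Without them the log2 ratio of Igfbp5 at high burden moved from -6.27 to -1.19, that of Gpm6a at low burden from -4.51 to 0.95, and that of Sbsn at low burden from -3.71 to -0.52, and 77 of the 2545 genes then tested were lower (139 of 3823 with them). Rspo1 and Clu were also among the 15 lowest, and their low-burden ratios without those cells were -2.32 and -1.05.

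Members differed among themselves. By residual variance over the 251 low-burden members, the first 12 genes were Malat1, Mgp, Gsn, Lyz2, Cst3, Actb, Dcn, Mfap4, Inmt, Apoe, Ear2 and Cd74, a mixture of fibroblast genes and genes of myeloid cells. Without the marked members Lyz2, Ear2 and Cd74 left the first 12, and Cox4i2, Hba-a1 and Hbb-bs entered. The low-burden members were divided into 8 clusters, described here by their leading genes and with no test, since the same counts defined them.

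Cluster 1 (76 cells) held the highest Tcf21 (1116 CPM), Mfap4 (7871 CPM), Hsd11b1 (3284 CPM) and Figf (893 CPM) of all clusters. Its leading genes included Slc7a10 (a serine and glycine carrier), Wnt2 (a growth signal for epithelium), Fgfr4, Ces1d (a lipid esterase), Cdo1 and Wisp2. Slc7a10 stood at 493 CPM in its cells and 50.1 CPM in the other members, and Wnt2 at 316 and 40.3 CPM. Hemoglobin genes also led this cluster by level, with Hbb-bs at 9717 CPM against 1004 CPM in the other members. Hbb-bs was seen in 84.2% of its cells and in 81.3% of all low-burden members, and 1 cell held 29.8% of its UMIs in members. Cluster 5 (22 cells), led by Adamtsl2, C4b, Cmklr1 and Gas1, held the highest Inmt (15797 CPM) and Npnt at 1560.1 CPM.

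Cluster 3 held the highest summed level of the adventitial markers outside the gate (38513 CPM), against 25314, 24548 and 23270.5 CPM in clusters 2, 5 and 1. Cluster 2 (41 cells) was led by C4b, Fxyd6, Pdgfrl and Vcam1, with Mgp at 23611 CPM, Mfap5 at 947 CPM and Inmt at 12256 CPM, near cluster 5 in Mgp (20043 CPM) and Mfap5 (899 CPM). Cluster 3 (36 cells) was led by Smoc2, Meg3, Serpinf1 and Rbp4, held Dcn at 2765 CPM, Igfbp6 at 2332 CPM and Col1a1 at 1552 CPM, and had Tcf21 at 269 CPM and Npnt at 99.5 CPM. Hsd11b1 thus ranged from 288 CPM in cluster 3 to 3284 CPM in cluster 1 within cells that the same rule had chosen.

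The other clusters carried genes of other cell types. Cluster 4 (30 cells) was led by Cd74, H2-Aa and Cd52, and 20 of its cells were marked for immune or surfactant genes. Cluster 6 (18 cells) was led by Ear2, Ear10 and Chil3, with 13 marked cells. Cluster 7 (17 cells) was led by Scgb1a1 (the club cell secretory protein), Cbr2 and Sftpb, and cluster 8 (11 cells) by the pericyte genes Cox4i2, Higd1b and Gucy1b3. Clusters 6, 7 and 8 held 0, 3 and 0 cells after a stricter removal that also took out cells with club cell, red cell, pericyte, alveolar macrophage or type 1 cell genes (176 low-burden and 35 high-burden cells remained). The heat map of the clusters shows these patterns.

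**Figure D3:**
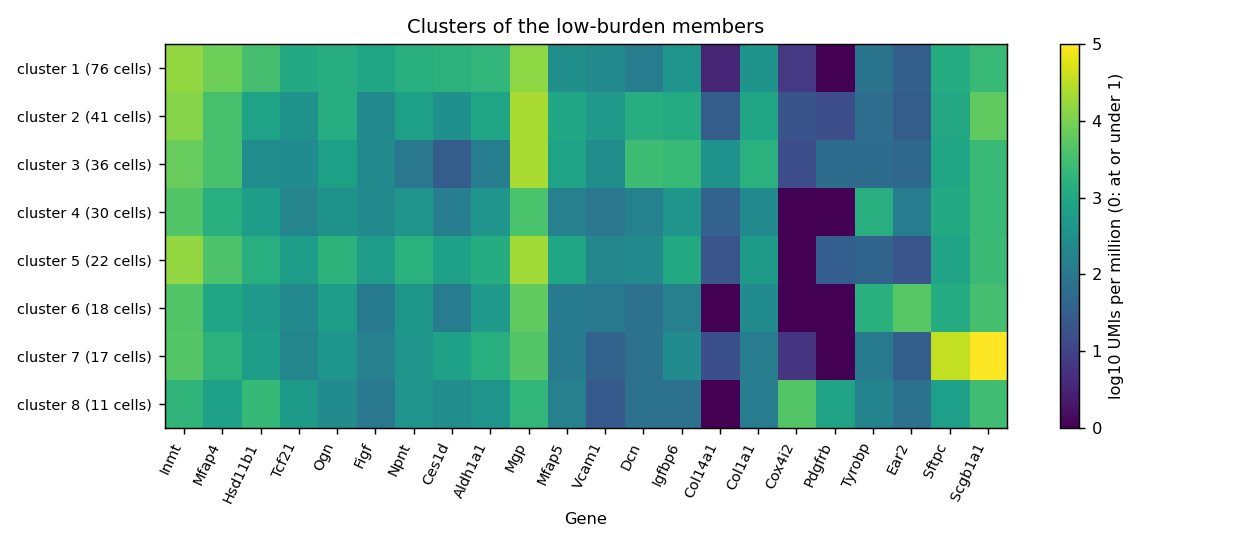
Level of 22 genes (horizontal) in the 8 clusters of low-burden members (vertical), colored by log10 of UMIs per 1000000. Clusters 1, 2, 3 and 5 carry Inmt and Mgp at the highest levels, cluster 3 carries Dcn at 2765 CPM, cluster 6 carries Ear2, cluster 7 carries Scgb1a1 and Sftpc, and cluster 8 carries Cox4i2.

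Genes that varied with the gate genes from cell to cell were taken over 662 genes in members without immune or surfactant genes at 2000 UMIs per cell, ranked by the smaller of the correlations in the low-burden and high-burden cells. These cells share a library and its base of free RNA, so the correlations are descriptions. Inmt varied most closely with Pcolce2, an enhancer of procollagen processing (Spearman's rho 0.58 over 211 low-burden and 0.51 over 36 high-burden cells), followed by the secreted antioxidant enzyme Gpx3 (0.53 and 0.49) and Aldh1a1 (0.47 and 0.52). Mfap4 varied most closely with Ogn (0.38 and 0.38), Aldh1a1 and Cdo1. Hsd11b1 varied with Gng11 (0.44 and 0.37) and Wisp2 (0.45 and 0.35).

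To ask how these fibroblasts differed between the lungs, UMIs were summed over the members of each library and scaled to CPM. A gene was tested when it had 50 UMIs over both libraries and was seen in 10% of members of either, and it was called at a ratio of at least 2. Of 4584 genes, 240 were at least 2-fold higher (5.24%) and 440 at least 2-fold lower (9.6%) at high burden, with a median log2 ratio of -0.11. Without immune or surfactant genes in the cells, 196 of 3687 genes were higher (5.32%) and 320 lower (8.68%), with a median of -0.08. Both sets shared 118 higher and 250 lower genes. Of those 118 higher genes, 0 had a high-burden level in members at least 2-fold above that in each of endothelial cells, lymphocytes, C1q macrophages and metastatic cells. Of the 250 lower genes, 83 had a low-burden level in members at least 2-fold above each of those classes. Those classes leave out adventitial, smooth muscle, epithelial and red cells, so the 83 are not all genes of the members. They include Scgb1a1, hemoglobin genes, Dcn (756 CPM, and 13942 CPM in adventitial fibroblasts) and Serpinf1 (121 and 1640 CPM). The share of all tested genes that met the same level rule is not given here. This level rule was set after the values were seen. At low burden its metastatic class was the 16 cells described above, which are not named metastatic here. Those cells held 57227 UMIs in all, so few UMIs could set the level there.

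**Figure D4:**
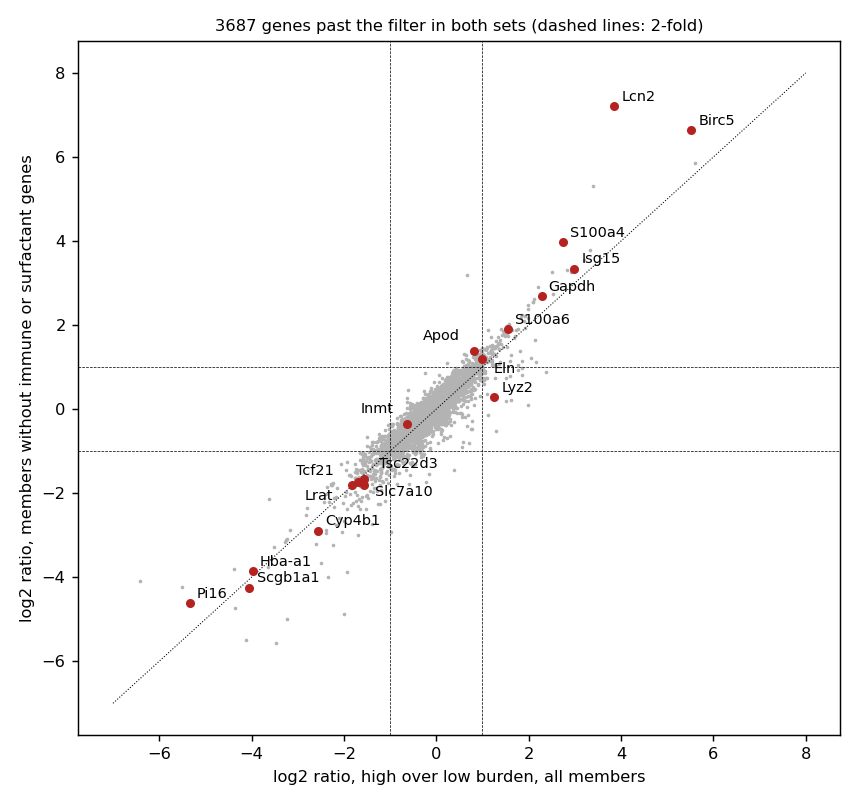
Log2 ratio of high over low burden in all members (horizontal) against the same ratio in members without immune or surfactant genes (vertical), 1 gray point per gene for 3687 genes, with some named genes in red. Tcf21, Slc7a10 and Lrat lie at nearly the same ratio in both sets, while Lyz2 falls from 1.25 to 0.28.

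Many genes at the extremes of the ratios are known from other cells. The 15 highest in all members were Ccl8, Ccl12, Ccl7, Ccl2, C1qa, C1qb, C1qc, Ms4a7 and Fcgr2b, which macrophages express, Birc5, Ube2c, 2810417H13Rik and Cdkn2a, which cycling or metastatic cells express, and Saa3 and Lcn2, acute-phase proteins. Cdkn2a was used by the rule, which capped its level in members, so its ratio is a description. Ccl8 had 1 UMI at low burden and 160 at high burden, and in the members without immune or surfactant genes its high-burden level was 12.5 CPM. Ube2c had 0 UMIs at low burden and stood at 104 CPM at high burden. The 15 highest in the second set were Lcn2, Birc5, Saa3, Phgdh, S100a4, Ccnd1, Cks1b, Isg15, Baiap2, Hn1, Ppa1, Plac8, Spp1, Bin1 and Gapdh. In the high-burden library, 12 metastatic markers summed to 1985 CPM in members (476 CPM at low burden) and to 2091 CPM in lymphocytes. PYMT, the transgene of the tumor cells, was at 0 UMIs in low-burden members and at 69.7 CPM in high-burden members, at 68.3 CPM in high-burden lymphocytes and at 65.1 CPM in high-burden metastatic cells. Lcn2 stood at 248 CPM in members and 278 CPM in lymphocytes, and Birc5 at 225 and 234 CPM. The part of free tumor RNA in the higher genes was not tested.

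The 15 lowest in all members were Ear1, Ear2, Ear10, Chil3, Abcg1 and Fabp1 (alveolar macrophage genes), Hba-a1 and Hbb-bt (hemoglobins), Scgb1a1 and Sec14l3 (club cell genes), Pi16, Mettl7a2, Ndufa4l2, Igfbp2 and Ccl21a. Pi16 was also used by the rule, in its adventitial sum. The Ear, Mettl7a and hemoglobin genes have near-identical copies, so that reads may be split among them. Scgb1a1 stood at 23781 CPM (low burden) and 1438 CPM (high burden) in members, and in the low-burden members without immune or surfactant genes 57.4% of its UMIs came from 1 cell. Hba-a1 stood at 3659 and 232 CPM, and its log2 ratio of -3.98 was -0.54 in the strict set. Genes that entered the 15 lowest without the marked members were Ager, Cbr2, Cox8b, Cyp2f2, Gucy1b3 and Hopx, and Cyp2f2 and Cbr2 are club cell enzymes.

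Most identity genes of alveolar fibroblasts stood at lower levels at high burden, in members and in other classes of cells. Tcf21 stood at 511 CPM (low burden) and 157 CPM (high burden), a log2 ratio of -1.70 (-2.04 to -1.38), and of -1.74 without immune or surfactant genes. It was seen in 55.8% of low-burden and 30% of high-burden members at 2000 UMIs per cell (72.1% and 56.7% unthinned), against 3.00% and 0% of lymphocytes. Mfap4, Hsd11b1 and Inmt, at -0.70, -0.91 and -0.63, stayed within 2-fold. Because these 4 genes chose the cells, their ratios are a description. Of 24 tested markers outside the gate, 8 were at least 2-fold lower and 0 higher (median -0.92), and of 23 in the second set 5 were lower and 0 higher (median -0.72). The same 24 genes had a median of -0.83 in adventitial fibroblasts, -0.90 in endothelial cells, -0.52 in lymphocytes and -0.97 in C1q macrophages, so lower ratios of these markers were not particular to the members.

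Among these markers, Slc7a10 stood at 159 CPM (low burden) and 53.6 CPM (high burden) (-1.57, -2.18 to -1.01), Fgfr4 at 77.2 and 30.4 CPM (-1.35), Ces1d at 665 and 269.8 CPM (-1.30) and Cdh11, a mesenchymal cadherin, at 191 and 92.9 CPM (-1.04). Of the genes that led cluster 1, Slc7a10, Fgfr4, Ces1d and Wnt2 were past 2-fold in both sets, with ratios of -1.80, -1.48, -1.30 and -1.22 in the second set. Wisp2 was at -1.06, or -0.94 in the second set, and Cdo1 (627 and 338 CPM, -0.89), Hsd11b1 (-0.91) and Cdkn2c, a cell cycle inhibitor (-0.71), stayed within 2-fold. Rarres2, which encodes the chemoattractant chemerin, was at -0.66 (1268 and 804 CPM), Ogn at -0.81 (932 and 531 CPM) and Figf stood at 403 and 202 CPM. Limch1 (602 and 627 CPM), Gyg (409 and 397 CPM) and Cxcl14 (547 and 541 CPM) held levels within 1.1-fold. These markers spanned ratios from -1.57 (Slc7a10) to 0.06 (Limch1). In lymphocytes, the 25 markers summed to 541 CPM (low burden) and 357 CPM (high burden), against 9905 and 5792 CPM in members.

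Growth factors for the alveolar niche were tested next. Of 18 tested, 4 were at least 2-fold lower and 0 higher, with a median of -0.75 (-0.95 for the same genes over the other classes). Of 14 in the second set, 2 were lower and 1 higher (median -0.74). Wnt2 stood at 108 CPM (low burden) and 46.5 CPM (high burden) (-1.22, -1.89 to -0.61), and Vegfa, a growth factor for blood vessels, at 64.0 and 23.2 CPM (-1.46). Fgf10, a signal for type 2 cells, had 43 and 8 UMIs (-1.30, -2.60 to -0.20). Vegfa was at -1.26 and Fgf10 at -0.81 in the second set. Bmp4 (211 and 136 CPM), Fgf7 (141 and 71.5 CPM), Angpt1 (124 and 64.3 CPM) and Bmp5 (104 and 60.7 CPM) had ratios of -0.64, -0.98, -0.95 and -0.78. Hbegf was the highest of the list at 0.58, with an interval from -0.24 to 1.37, and at 1.12 it was the higher gene of the second set. Of 19 tested growth factor receptors, 6 were lower and 0 higher (median -0.63), and of 18 in the second set 6 were lower and 0 higher (median -0.70). Pdgfrb, the receptor of pericytes, was the lowest with 51 and 6 UMIs (41.9 and 10.7 CPM, -1.97, -3.48 to -0.74), and its ratio in the strict set, which leaves out cells with pericyte genes, was -0.70. Pdgfra, the receptor that defines much of the alveolar mesenchyme, stood at 303 and 173 CPM (-0.81, -1.14 to -0.48), Fgfr3 at 78.8 and 23.2 CPM (-1.76) and Tgfbr3 at 103 and 37.5 CPM (-1.45). Nrp1 (243 and 223 CPM) and Tgfbr2 (158 and 138 CPM) were at -0.12 and -0.20. Nrp2 was the highest receptor at 0.23 (-0.30 to 0.74).

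Genes of lipid and retinoid handling differed in direction. Of 23 tested, 10 were at least 2-fold lower and 2 higher, with a median of -0.73 (-0.78 over the other classes), and of 20 in the second set 6 were lower and 2 higher (median -0.74). Lrat, which esterifies retinol for storage, stood at 166 CPM (low burden) and 46.5 CPM (high burden) (-1.84, -2.49 to -1.24), and at 7.42 and 0 CPM in adventitial fibroblasts. The retinol carrier Rbp4 (335 and 148 CPM) and the retinal reductase Dhrs3 (108 and 46.5 CPM) were also lower, at -1.18 and -1.21. Aldh1a1, a retinal dehydrogenase, stood at 1033 and 495 CPM (-1.06), and at -0.88 in the second set. Pnpla2, a triglyceride lipase, Lpl, Cd36 and Scd2 had ratios of -1.22, -1.51, -1.09 and -1.28, and Lpl was at -0.65 in the second set. Plin2, which coats lipid droplets, stood at 155 and 173 CPM (0.16, -0.21 to 0.52). The higher genes were Fabp5 (84.5 and 316 CPM) and Fasn (25.4 and 57.2 CPM), and Fabp5 was also higher in lymphocytes (66.7 and 202 CPM). Apod, a lipocalin, was at 46.0 and 80.4 CPM (0.81, 0.21 to 1.40) in all members and at 52.8 and 137 CPM (1.38) in the second set, while it stood at 207 and 16.7 CPM in adventitial fibroblasts.

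Of 20 tested detoxification and antioxidant genes, 7 were lower and 0 higher (median -0.75, and -0.73 over the other classes), and of 19 in the second set 5 were lower and 0 higher (median -0.83). Cyp4b1 stood at 105 CPM (low burden) and 17.9 CPM (high burden) (-2.56, -3.65 to -1.63), and Gsta3 at 260.2 and 118 CPM (-1.14). Gstm1 and Mgst1 were at -1.08 and -1.15, Fmo2, Gpx3 and Sod3 at -0.96, -0.67 and -0.80, and Gpx1 at 0.36. Gstm1 has close paralogs, which may share its reads. In vasoactive signaling, 7 of 11 genes were lower and 0 higher (median -1.16, and -0.995 over the other classes), and in the second set 6 of 10 were lower and 1 higher (median -1.56). In the strict set 2 of 5 were lower and 1 higher, with a median of -0.30. Calcrl and its partner Ramp2, which form the adrenomedullin receptor, were at -2.22 and -1.16, and the phosphodiesterase Pde5a was at -2.22. Of 9 tested endothelial markers, 9 were also at least 2-fold lower in members (median -1.62, and -1.18 over the other classes). In the second set 7 of 8 were lower (median -1.68). The 12 listed endothelial markers summed to 750 and 263 CPM in members, and the part of endothelial RNA in these ratios was not tested. Gucy1b3 was at -3.24, and Pde5a and Gucy1b3 are also pericyte genes, which 14 low-burden and 0 high-burden members carried at the pericyte gate. In the strict set Pde5a was at -0.19. The endothelin receptor Ednra was at 94.4 and 85.8 CPM (-0.14). Rgs2 went the other way, at 300.4 and 581 CPM (0.95, 0.73 to 1.17), and was the higher gene of the second set (1.30).

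Most matrix genes were within 2-fold. Of 15 tested collagens, 2 were lower and 0 higher (median -0.62), and of 14 in the second set 1 was lower and 0 higher (median -0.56). The same genes had a median of -0.02 in adventitial fibroblasts, -0.58 in C1q macrophages, 1.02 in endothelial cells and 1.57 in lymphocytes. Col1a1 stood at 597 CPM (low burden) and 313 CPM (high burden) in members (-0.93, -1.18 to -0.69) and at 1921 and 2011 CPM in adventitial fibroblasts. Col3a1 was at 1012 and 750.4 CPM (-0.43), Col1a2 at 815 and 527 CPM (-0.63), Col5a1, the highest, at 27.9 and 39.3 CPM (0.49, -0.35 to 1.31) and Col14a1 at 75.5 and 26.8 CPM (-1.49). Of 10 tested basement membrane genes, 3 were lower and 0 higher (median -0.64), among them Lamb2 (-1.51) and Lama4 (-1.02), while Sparc was at -0.03, Sparcl1 at -0.41 and Npnt at -0.67. In the second set 2 of 10 were lower and 0 higher (median -0.45). Of 10 proteoglycans and glypicans, 1 was lower, Aspn at -1.29, and 0 were higher (median -0.75). In the second set 1 of 9 was lower and 0 higher (median -0.57). Bgn, Prelp and Gpc3 were at -0.41, -0.84 and -0.91, and Sdc1 was the highest at 0.58 (-0.24 to 1.37).

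Elastin differed from the rest of its list. Of 13 tested elastic fiber genes, 2 were lower, Ltbp4 (751 and 266 CPM, -1.50) and Fbln1 (339 and 150.1 CPM, -1.18), and the median was -0.57. In the second set 2 of 13 were lower and 1, Eln, was higher (median -0.39). Eln stood at 162 CPM (low burden) and 323 CPM (high burden) in members, a ratio just under the 2-fold limit (log2 1.00, 0.70 to 1.30), and at 184 and 425 CPM (1.20) in the second set. In adventitial fibroblasts Eln stood at 445 and 244 CPM, and in endothelial cells at 97.3 and 63.4 CPM. Fbln5, needed for the assembly of elastic fibers, was at 190.4 and 120 CPM (-0.67) and Loxl1, a cross-linking enzyme, at 295 and 247 CPM (-0.26). Among 17 tested proteases and inhibitors, Timp1 was the only one at least 2-fold higher (30.4 and 120 CPM, 1.98), and it stood at 0 and 46.1 CPM in lymphocytes. Of these 17, 3 were lower (median -0.42), and of 16 in the second set 1 was higher and 0 lower (median -0.10). Timp3, an inhibitor bound to matrix, was at 1502 and 850.5 CPM (-0.82), and Serpinh1, a collagen chaperone, at 699 and 543 CPM (-0.36).

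Of 31 tested transcription factors, 4 were lower and 0 higher (median -0.46), and of 29 in the second set 2 were lower and 1 higher (median -0.34). Those with most UMIs were Id3 (0.15), Nfib (-0.45) and Klf2 (-0.42). Foxf1, a regulator of lung mesenchyme, stood at 56.6 CPM (low burden) and 16.1 CPM (high burden) (-1.82, -3.01 to -0.81). Epas1 was at 131 and 42.9 CPM (-1.61), and endothelial cells, which are rich in it, had a ratio of -0.72. Sox4 was the highest at 79.6 and 159 CPM (1.00, 0.57 to 1.43). Of 11 glucocorticoid-responsive genes, Tsc22d3 was lower and Mt2 was higher (median -0.44), and in the second set 1 of 11 was lower and 0 higher (median -0.21). Tsc22d3 stood at 643 and 218 CPM (-1.56, -1.85 to -1.28), and it was also lower in adventitial fibroblasts (-2.29), endothelial cells (-1.58), lymphocytes (-1.88) and C1q macrophages (-2.97). Cebpb was at -0.85 (1002 and 557 CPM), Klf9 at -0.65 and Dusp1 at -0.18.

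Early response genes, which tissue dissociation can induce, were at like levels in both lungs. Of 36 tested immediate early and stress genes, 1 was at least 2-fold higher and 0 lower, with a median of 0.01 (1 and 0 of 36, and 0.05, in the second set). Fos stood at 1647 CPM (low burden) and 1603 CPM (high burden), Junb at 1269 and 1499 CPM, and Hspa8, a chaperone, at 1418 and 1628 CPM. Jund was the lowest at 853 and 500.3 CPM (-0.77). Ier3 was the higher gene at 195 and 447 CPM (1.19).

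Interferon-responsive and antigen presentation genes were higher in part. Of 28 tested, 10 were at least 2-fold higher and 1 lower (median 0.76), and of 23 in the second set 6 were higher and 1 lower (median 0.40). Isg15, a ubiquitin-like protein induced by interferon, stood at 15.6 CPM (low burden) and 123 CPM (high burden) (2.98, 2.23 to 3.80), and at 16.3 and 165 CPM (3.34) in the second set. Irf7, a transcription factor of the interferon response, had 14 and 44 UMIs (11.5 and 78.6 CPM, 2.77, 1.88 to 3.76). In lymphocytes Isg15 stood at 14.3 and 30.7 CPM and Irf7 at 15.5 and 20.5 CPM, and in high-burden metastatic cells Isg15 stood at 194 CPM and Irf7 at 9.18 CPM. Adventitial fibroblasts had Isg15 at 20.1 and 199 CPM and Irf7 at 8.48 and 76.5 CPM.

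Rtp4 (15.6 and 64.3 CPM), the proteasome subunits Psmb8 (93.6 and 282 CPM) and Psmb9 (45.1 and 104 CPM) and Bst2 (82.1 and 177 CPM) were also past 2-fold, with ratios of 2.04, 1.59, 1.20 and 1.11. In the second set Bst2 was at 0.75, and Gbp2, at 1.12 in all members, was at -0.15. B2m, the light chain of class I molecules, stood at 1979 and 3321 CPM (0.75, 0.66 to 0.83), H2-K1 at 519.6 and 883 CPM (0.76) and H2-D1 at 1976 and 2096 CPM (0.08). Ifitm3 was at 1716 and 2192 CPM (0.35), and Ly6c1, which endothelial cells also express, was the lower gene at 104 and 46.5 CPM (-1.17). Ifit3, also induced by interferon, stood at 50.1 and 35.7 CPM (-0.49, -1.29 to 0.26), and the list was split in direction.

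The 250 bases before the start site of the list's genes were searched for the core of the interferon-stimulated response element, which is GAAA, any 2 bases and GAAA again, on both strands with overlaps allowed. It was present before 936 of 27025 genes (3.46%) and before 12 of the 30 listed genes that have a promoter entry. Of the 20 such genes past the filter, 8 held it, and Irf7 and Psmb8 did not. A match is a match of letters only. Shown 5′ to 3′ in the direction of the gene, from RefSeq on GRCm38.p6 with matches in capitals, are the promoters of the gene with the highest ratio, of a gene near 2-fold and of one that was not higher: Isg15 at chr4:156200819-156201068 (minus strand), Bst2 at chr8:71537473-71537722 (minus strand) and Ifit3 at chr19:34583279-34583528 (plus strand).
Isg15: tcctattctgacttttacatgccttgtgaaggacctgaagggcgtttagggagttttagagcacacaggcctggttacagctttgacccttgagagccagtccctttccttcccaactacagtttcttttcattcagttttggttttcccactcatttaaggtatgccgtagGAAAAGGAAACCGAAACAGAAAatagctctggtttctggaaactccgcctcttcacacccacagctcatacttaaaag
Bst2: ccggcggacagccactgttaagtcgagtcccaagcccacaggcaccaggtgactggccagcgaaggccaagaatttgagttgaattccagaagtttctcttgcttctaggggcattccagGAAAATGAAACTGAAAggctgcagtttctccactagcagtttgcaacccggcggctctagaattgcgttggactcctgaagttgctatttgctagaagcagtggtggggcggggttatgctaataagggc
Ifit3: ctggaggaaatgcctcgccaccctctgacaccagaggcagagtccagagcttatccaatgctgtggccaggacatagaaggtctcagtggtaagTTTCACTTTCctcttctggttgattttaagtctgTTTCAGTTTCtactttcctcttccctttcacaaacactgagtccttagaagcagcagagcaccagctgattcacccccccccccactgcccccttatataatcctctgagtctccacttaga
Isg15 held 3 overlapping matches, the first starting 78 bases before the start site, Bst2 held 2, starting 130 bases before it, and Ifit3 held 2, starting 156 bases before it.

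Genes tied to fibroblast activation split. Of 23 tested, 5 were higher and 4 lower (median 0.00), and of 22 in the second set 6 were higher and 3 lower (median 0.35). S100a4, a calcium-binding protein of motile cells, stood at 73.9 CPM (low burden) and 493 CPM (high burden) (2.74, 2.39 to 3.10), and S100a6 at 1499 and 4411 CPM (1.56, 1.47 to 1.65). In the second set S100a4 stood at 39.4 and 615 CPM and S100a6 at 1616 and 6056 CPM. At high burden the top cell among the 36 of that set held 27.7% of its S100a6 UMIs. At high burden lymphocytes held S100a4 at 723 CPM and metastatic cells at 2582 CPM, and for S100a6 these levels were 2576 and 16738 CPM. Lgals1 stood at 1270 and 3273 CPM (1.37), Spp1 at 199 and 920.1 CPM (2.21) and Vim at 1097 and 2062 CPM (0.91). Lgals1 was at 1293 and 3215 CPM in lymphocytes, and Spp1 at 112 and 1276 CPM. The lower genes included Acta2, the smooth muscle actin of myofibroblasts (97.7 and 39.3 CPM, -1.31, -2.04 to -0.65), and Ctgf, a matrix-linked growth factor (557 and 214 CPM, -1.38, -1.67 to -1.10). Runx1 was the lowest at 51.7 and 17.9 CPM (-1.53, -2.66 to -0.56). Fn1 was at 239 and 363 CPM (0.60). The actin-binding Tmsb4x was at 8725 and 12467 CPM (0.51), or -0.10 in the second set, and Tmsb10 at -0.11.

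Of 9 tested smooth muscle and myofibroblast genes, 7 were lower and 0 higher (median -1.31), and in the second set 6 of 9 were lower and 0 higher (median -1.07). Tagln stood at 151 CPM (low burden) and 60.7 CPM (high burden), and Des at 84.5 and 16.1 CPM, while Mylk (270.0 and 229 CPM) and Tpm1 (208.5 and 202 CPM) were at -0.24 and -0.05. Of 6 tested pericyte genes all 6 were lower (median -2.76), as were 4 of 5 in the second set (median -1.97). Cox4i2 stood at 154 and 14.3 CPM in all members, and its ratio was at 0.65 in the strict set. Adventitial markers were lower as well, in 8 of 14 (median -1.11) and in 6 of 14 in the second set (median -0.87). Dcn, used by the rule, stood at 756 and 107 CPM (-2.82), and Gsn, Igfbp6 and Serpinf1 were at -1.13, -1.27 and -1.84. Dpt (538 and 439.5 CPM, -0.29), Mfap5 (475 and 463 CPM, -0.04) and Ly6a (208 and 307 CPM, 0.57) were within 2-fold. Smoc2, a leading gene of cluster 3, stood at 112 and 16.1 CPM (-2.80), and Meg3 at 126 and 26.8 CPM (-2.24).

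Fewer inflammatory and acute-phase genes were higher once the members with immune or surfactant genes were left out. Of 21 tested, 10 were higher and 2 lower (median 0.77, and 0.64 over the other classes), and of 15 in the second set 5 were higher and 2 lower (median 0.25). Cxcl1, a neutrophil chemoattractant, stood at 31.2 CPM (low burden) and 134 CPM (high burden) (2.10, 1.52 to 2.71) and at 23.0 and 134 CPM in the second set, and lymphocytes held it at 4.76 and 56.4 CPM. The ratio of Cxcl2 was 2.44 in all members and 0.65 in the second set, and that of Il1b was 1.70 and 1.75. Saa3 stood at 4.92 and 239 CPM (5.60), and at 92.2 CPM in high-burden lymphocytes, 1409 CPM in adventitial fibroblasts and 2327 CPM in C1q macrophages. Nfkbiz was at 66.5 and 157 CPM (1.24), Nfkbia at 0.50 and Ptgis, the prostacyclin synthase, at 462 and 284 CPM (-0.70). Of 11 tested complement genes, 2 were lower and 0 higher (median -0.52), and in the second set 2 were lower and 1 higher (median -0.36). Serping1, which inhibits C1, was at 1650 and 1306 CPM (-0.34), C1ra at -0.54 and Cd55, the lowest, at -1.31 (-2.45 to -0.32). C4b was the highest at 129 and 207 CPM (0.69, 0.33 to 1.04), or 1.01 in the second set, with 3.42 CPM in high-burden lymphocytes. Tslp, an epithelial and stromal cytokine, stood at 60.7 and 17.9 CPM (-1.77).

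Glycolytic genes were higher in 7 of 21 and lower in 2 (median 0.42, and 0.72 over the other classes), and in the second set in 7 and 2 of 19 (median 0.58). Gapdh stood at 281 CPM (low burden) and 1361 CPM (high burden) (2.28, 2.09 to 2.47), Mif at 238 and 863 CPM (1.86), Pkm at 220.0 and 643 CPM (1.55), Aldoa at 503 and 638 CPM (0.34) and Eno1 at 100.1 and 298 CPM (1.58). Gapdh was also higher in adventitial fibroblasts (279 and 1021 CPM), endothelial cells (368 and 1328 CPM) and lymphocytes (627 and 1432 CPM). Proliferation genes were higher in 7 of 10 (median 1.37, and 1.16 over the other classes) and in 6 of 8 in the second set (median 1.23), with H2afz at 281 and 1224 CPM (2.12), Tubb5 at 264 and 538 CPM (1.02) and Tuba1b at 537 and 838 CPM (0.64), while Stmn1 was the lowest at -0.89. H2afz stood at 1794 CPM in high-burden lymphocytes and 2612 CPM in metastatic cells. Of 24 secretory chaperones, 2 were higher and 1 lower (median -0.35), and in the second set 1 and 1 of 23 (median -0.19). Hspa5 and Hsp90b1 were at -0.34 and -0.22, Sdf2l1 was the highest at 1.52 (0.73 in the second set) and Ddit3 the lowest at -1.16.

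The chemokines Cxcl12 and Ccl5 were among the proteins that the study measured in lung tissue, and it reported both as reduced at high burden. Those values are protein of whole lungs, while the values here are RNA of single classes of cells. Cxcl12 stood at 82.1 CPM (low burden) and 71.5 CPM (high burden) in members (-0.20, -0.77 to 0.34), and at 485 and 76.5 CPM in adventitial fibroblasts. Ccl5 stood at 153 and 130.4 CPM (-0.23, -0.65 to 0.16) in all members and at 41.3 and 74.9 CPM in the second set, and lymphocytes held it at 1352 and 229 CPM. Neither differed past 2-fold in all members.

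**Figure D5:**
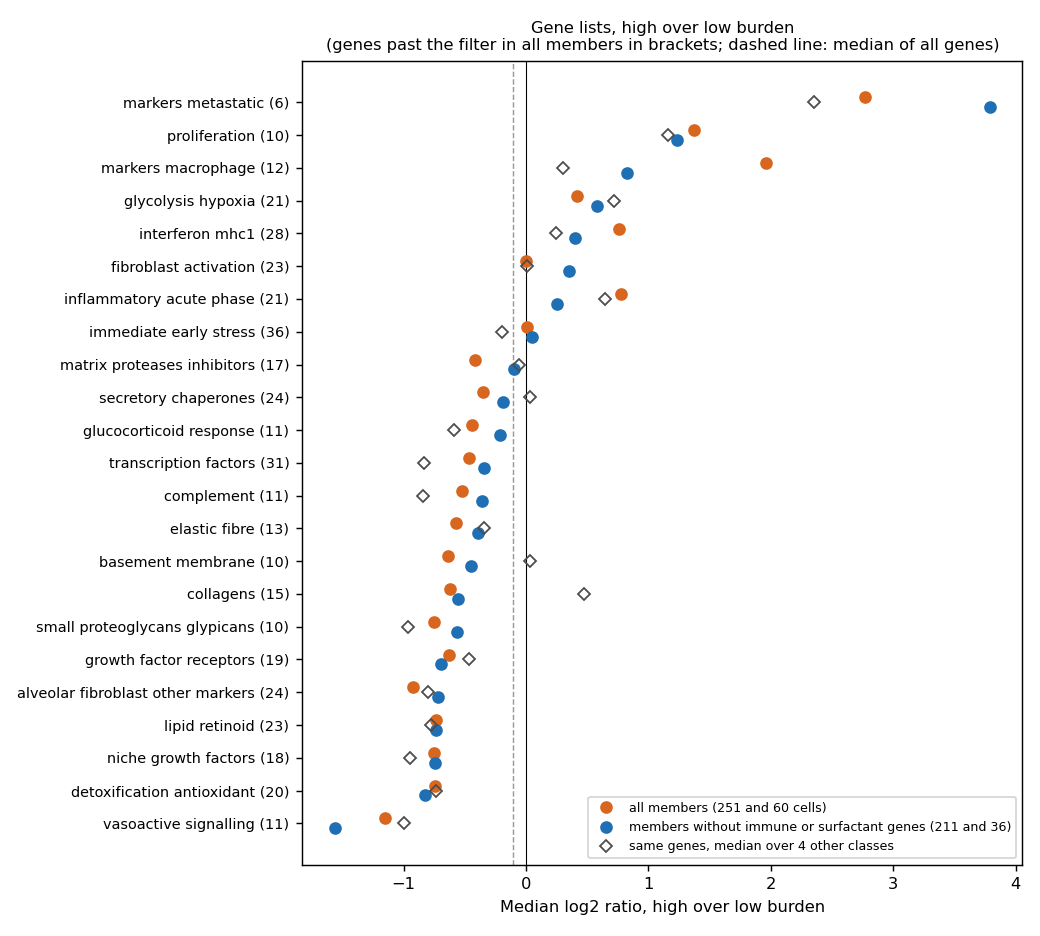
Median log2 ratio of high over low burden (horizontal) of 23 gene lists (vertical, genes past the filter in all members in brackets), with orange for all members, blue for members without immune or surfactant genes, and open diamonds for the median of the same genes over 4 other classes. Identity, lipid, detoxification, growth factor and vasoactive lists lie below the median of all genes (dashed, -0.11) in members and in the other classes alike, interferon, proliferation and metastatic marker lists lie above it in both, and collagens lie at -0.62 in members and 0.48 over the other classes, which themselves range from -0.58 to 1.57.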

How the data were processed

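Droplet libraries (10x Genomics) of 2 dissociated mouse lungs were analysed, 1 per burden, grouped by sample title. The deposited values are counts of UMIs per gene and cell (whole numbers, not normalized) that the authors made with Cell Ranger 2.0.2 on mm10 with the PYMT sequence added. The study's methods also name an aggregation of libraries, and whether it preceded these counts is not stated in the sources used here. A depth scaling at that step would lower the depth of the deeper library. Cell Ranger counts only reads that map to 1 gene, so near-identical genes are undercounted. Cell types were rebuilt from counts.

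Cells with 1000 to 7000 genes and at most 10% mitochondrial UMIs were kept. Member UMIs were summed per library and scaled to 1000000 (CPM), and log2 ratios of high over low burden were given exact conditional binomial intervals. Genes needed 50 UMIs over both libraries and detection in 10% of members of either library. Shares have exact binomial (Clopper-Pearson) intervals. A count of 0 was set to 3 for a bound. No p-value was computed, since 1 library per group allows no test. The adventitial, smooth muscle and pericyte, endothelial, lymphocyte, C1q macrophage and metastatic classes were cut from levels of fixed genes in the same way, and mesothelial cells, with Msln, Upk3b and Upk1b together at 3 or more per 10000 UMIs, were set apart from the adventitial class after values were seen. Low-burden members were clustered with Leiden (1000 variable genes, 10 components, 15 neighbors, resolution 0.8). Doublets were kept, and Scrublet (score above 0.25) was run as an alternative. The calculation of ratios and intervals was tested on simulated summed counts. These had no variation between cells, so that test says nothing about spread from cell to cell. Python 3.11.15, scipy 1.17.1 and scanpy 1.11.5 were used. Promoters were taken from RefSeq (GRCm38.p6) and gene positions from GENCODE M21.

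The members and gene lists were chosen with earlier results of these data known. Named by rule were the gate genes and 6 markers, the 15 highest and 15 lowest ratios of each comparison, the 12 most variable genes, per list the 3 genes with most UMIs and the highest and lowest ratio, and PYMT, S100a4, Acta2, Col1a1, Col3a1, Cxcl12 and Ccl5. They are printed for the lists described, and only in part for markers of other cell types. The other genes of the lists were named after their values were seen. Alternatives covered the gate, depth, filters, scaling and removed cells. The lists hold genes whose own values are not reported here.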

Additional observations from a re-analysis of the deposited data

Results flagged for a closer look

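The ratios of 4 genes were opposite in alveolar Tcf21 fibroblasts and in adventitial fibroblasts without mesothelial genes, among 3121 genes compared, at 2-fold or more in each and with counting intervals that excluded 0. Des, an intermediate filament of muscle cells, had a log2 ratio of high over low burden of -2.39 in members (84.5 and 16.1 CPM) and 1.23 in adventitial fibroblasts (53.0 and 124 CPM). Tagln, a smooth muscle protein, was at -1.31 in members and 1.34 in adventitial fibroblasts (102 and 258 CPM). Hp, haptoglobin, was at -1.30 and 1.88, but at 0.95 in the strict set of members, where it was no longer opposite. Cyp2f2, a club cell enzyme, was at -3.47 and 1.07. With 1 library per burden the difference between the classes was not tested.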

How the results depend on the processing

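No paired analysis was possible because each burden has 1 sample and its number comes from accession order. The low-burden share of 10.1% was 13.4% with the gate at 10, 8.61% at 25, 11.9% after thinning to 2000 UMIs, 8.53% without members that carried immune or surfactant genes and 7.12% in the strict set. The high-burden share of 1.98% was 1.19% and 1.15% under the last pair, and 3.39% of cells without metastatic genes. The 240 higher and 440 lower genes were 64 and 152 after thinning (1832 genes tested), 65 and 79 with a filter of 200 UMIs (1244 tested) and 3273 and 1898 with no filter (15028 tested), and 289 genes were lower in the strict set. Leaving out the top cell of each gene moved the median of all genes by -0.10. Against the adventitial gate, a filter of 200 UMIs left 42 higher and 45 lower of 1077 genes tested, and 77 of 2545 were lower without mesothelial cells (115 and 139 of 3823 otherwise). Signs changed for Adamts5 (0.26) and Kcnj8 (0.19) after thinning, Gbp2 without the marked members (-0.15), Gbp2 (-0.37), Cox4i2 (0.65) and Hp (0.95) in the strict set, Gpm6a at low burden without mesothelial cells (0.95), the mesothelial list's median with no filter (0.011) and the vasoactive list's median with a filter of 200 UMIs (0.95). The filters and thinning tested fewer or more genes by construction, and otherwise the cause was not tested. Of the other values of single genes and list medians, 2945 stayed within their counting interval and 649 moved beyond it. Of the shares and counts of called genes under these alternatives, 32 stayed within the limits set for them and 18 moved beyond. With 60 high-burden members, genes under 50 UMIs were not compared. The strict set and the removal of mesothelial cells were chosen after seeing the data.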
